A study of Mus musculus with 39 samples.

Results

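Endoplasmic reticulum (ER) stress genes were followed in the epididymal adipose tissue of C57BL/6J mice. The genes were Hspa5, Hsp90b1, Ddit3, Atf4, Xbp1, Herpud1, Dnajb9, Trib3, Calr and Pdia4. They were picked by name, and each was represented by its brightest probe on a one-colour Agilent array. In all, 10 genes and 15 probes of 29411 gene names and 40628 probes carried these names. The mice were weaned at an age of 3 to 4 weeks and placed on 1 of 5 diets, and tissue was collected from day 1 to week 18 on 39 arrays.

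The low fat control diet, with 10% of its calories from fat, is called LFC, and its 11 arrays came from days 1, 6, 10 and 14 and weeks 0, 3, 6, 9, 12, 15 and 18. The high fat diet, called HFC, gave 60% of its calories as fat with raised sucrose, and its 10 arrays covered the same time points from day 6 on. HF5, HF20 and HF75 mice received that high fat diet together with 5, 20 or 75 µg of KAL-1, a plant formulation, and each dose had 6 arrays, at weeks 3 to 18. The study's methods count weeks from day 14 on, so day 14 and week 0 are the same time on the diet. The files hold 1 array of each diet at a time point, whereas the series record speaks of 3 biological replicates, and an R in some titles is not explained. The time points of a diet therefore served as its replicates, and the p-values measure the spread between these arrays only. Of the 5 animals that were sacrificed together, it is not stated whether 1 or all gave RNA to an array.

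The endoplasmic reticulum is the compartment in which secreted and membrane proteins fold. When unfolded proteins collect there, the sensors IRE1, PERK and ATF6 start the unfolded protein response: IRE1 splices the RNA of Xbp1, PERK slows translation but lets ATF4 protein through, and ATF6 is cut into an active factor. These factors raise chaperones, degradation proteins and, under lasting stress, genes tied to cell death. In adipose tissue this response is known for its link to obesity. The arrays measured RNA levels, and neither the splicing of Xbp1 RNA nor protein was measured.

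Some promoters of these genes hold the letters of known ER stress elements. RefSeq promoter windows (build GRCm38.p6, 250 bases before to 50 after the gene's start) were found for 10 of 10 genes and searched on both strands. The ER stress response element (ERSE) was searched as CCAAT and CCACG parted by 9 bases, and its second form (ERSE-II) as ATTGG and CCACG parted by 1 base. ERSE was present in 3 of 10 genes against 0.119% of 32851 promoters, and ERSE-II in 1 of 10 against 0.0365%. The elements were searched because they are known from ER stress genes, so these counts are a description and were not tested. The stretches of those 4 genes are given 5′ to 3′ on the gene's strand, and capitals mark the letters of the elements. An element on the other strand reads as CGTGG followed by ATTGG. In Herpud1 the first run of capitals is the reverse complement of TGATGCAA, a C/EBP-ATF element.
Hspa5, chr2:34772013-34772055 (+): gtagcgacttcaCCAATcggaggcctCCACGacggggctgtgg
Hsp90b1, chr10:86705521-86705668 (−): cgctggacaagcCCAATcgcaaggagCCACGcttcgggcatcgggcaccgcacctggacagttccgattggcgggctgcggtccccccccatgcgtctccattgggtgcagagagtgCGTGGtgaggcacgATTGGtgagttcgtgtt
Calr, chr8:84847063-84847105 (−): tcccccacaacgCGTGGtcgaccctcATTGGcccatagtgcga
Herpud1, chr8:94386305-94386399 (+): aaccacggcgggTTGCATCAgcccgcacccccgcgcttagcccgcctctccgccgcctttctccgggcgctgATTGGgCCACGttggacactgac

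The ERSE of Hspa5 began 65 bases upstream of the gene's start and that of Calr 162 bases upstream. Hsp90b1 held a pair of them, at 212 and 107 bases upstream, and the ERSE-II of Herpud1 began 52 bases upstream. The C/EBP-ATF element, to which ATF4 can bind, was searched as TGATGCAA and TGATGAAA. The first form was found in Herpud1 alone among the 10 genes and in 0.895% of promoters, and the second in none of the 10 and in 1.02%. The core of the unfolded protein response element, TGACGTGG, was present in 0 of 10 genes and 0.676% of promoters. A match is a match of letters in this window and not a measured binding site.

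On 37 of 39 arrays 53.7 to 79.6% of spots were well above background and 21 to 387 spots were marked as outliers. The LFC array of week 3 and the HFC array of week 12 stood apart, with 97.1% and 94.5% of spots well above background and 16431 and 10531 outlier spots. Where differences moved without them, they are given both ways or with weights that count deviant arrays less. A level is the log2 signal of a probe minus the log2 signal at the 75th percentile of its array, so levels of 1 gene are compared between arrays and not between genes. The first probes of the 10 genes were well above background on all 39 arrays. A few values are missing because the spot was an outlier: Ddit3, Dnajb9 and Trib3 on the LFC week 3 array, Atf4 on LFC day 1 and Dnajb9 on HF75 week 15. The Hspa5 probe was saturated on 12 of 39 arrays, which compresses its differences. The adipocyte markers Adipoq, Plin1, Fabp4, Cfd, Retn, Cidec and Lipe were well above background on each of the 37 arrays. Markers of epididymis epithelium, the neighbouring tissue, ranged from 0 of 7 to 7 of 7 well above background, and their part in the results was not tested. In whole tissue, fewer cells of a type and less RNA per cell cannot be told apart.

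No ER stress gene passed the threshold (adjusted p under 0.05 over all probes, limma) in any of the 9 comparisons of diets and periods. In 8 of these comparisons 0% of all probes tested passed. The exception was late against early on the low fat diet, where 0.468% passed, 81 probes higher and 64 lower. The levels below are therefore described with their spread, and a sign is put in words as lying above or below only where the difference exceeded its standard error.

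**Figure D1:**
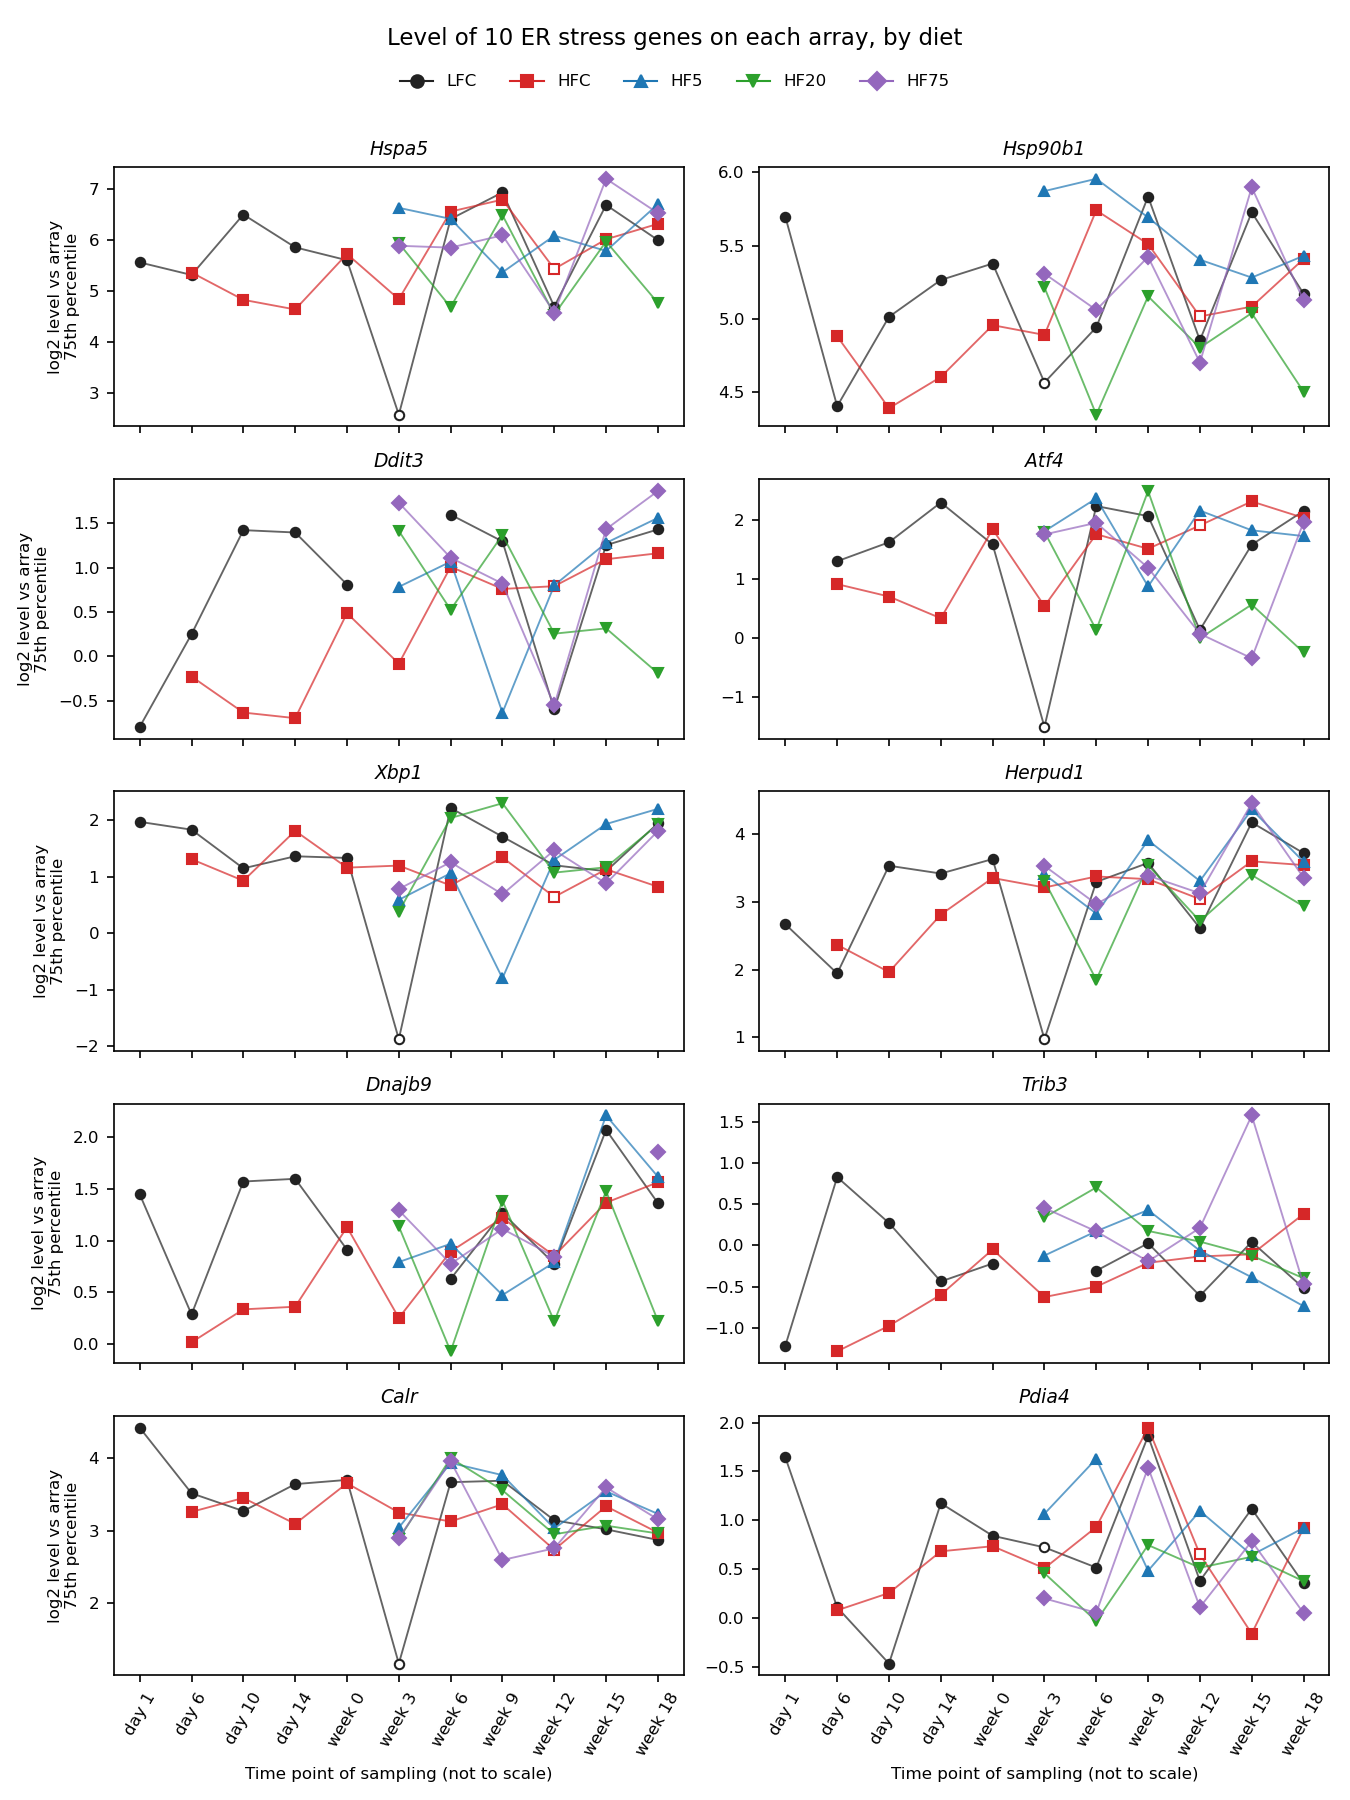
Level of each gene on each array (log2 signal minus the array's 75th percentile) against time point, 1 panel per gene and 1 line per diet, with the LFC week 3 and HFC week 12 arrays as open symbols. Hspa5 in LFC moves from 4.70 at week 12 to 6.68 at week 15, and the lowest values of Hspa5, Atf4, Xbp1, Herpud1 and Calr lie on the LFC week 3 array.

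Among the chaperones, Hspa5 encodes BiP, the main HSP70 of the ER, which binds unfolded chains and holds the sensors inactive. Its level on the LFC arrays ran from 2.58 at week 3 to 6.93 at week 9, with a median of 5.86. On the HFC arrays it ran from 4.64 at day 14 to 6.79 at week 9, with a median of 5.58. The groups overlapped almost in full, and LFC week 3 lay more than 2 log2 units below every other LFC array. HF5 arrays ran from 5.37 to 6.70 (median 6.25), HF20 arrays from 4.54 to 6.49 (median 5.35) and HF75 arrays from 4.58 to 7.20 (median 5.99). The HF20 arrays of weeks 6, 12 and 18, at 4.68, 4.54 and 4.77, were the low ones of that dose, and HF75 was low at week 12 only.

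Hsp90b1 encodes GRP94, the HSP90 of the ER. Its level ran from 4.40 to 5.83 in LFC (median 5.17), from 4.39 to 5.74 in HFC (median 4.99), from 5.28 to 5.96 in HF5 (median 5.56), from 4.34 to 5.21 in HF20 (median 4.92) and from 4.70 to 5.90 in HF75 (median 5.22). The lowest HF5 array, at 5.28, lay narrowly above the highest HF20 array, at 5.21, and every other pair of diets overlapped. That gap was not tested, and how many of all probes part HF5 from HF20 in this way was not counted. Calr, which encodes the calcium-binding lectin chaperone calreticulin, ran from 2.60 to 4.41 on 38 arrays and was 1.17 on LFC week 3. Pdia4, a disulfide isomerase also called ERp72, ran from −0.47 on LFC day 10 to 1.95 on HFC week 9. At week 9 it was high in LFC, HFC and HF75, at 1.86, 1.95 and 1.54. It was lower in HF5, at 0.48, and in HF20, at 0.75, although 0.75 was the highest level of HF20. The week 9 arrays were scanned first, and 29.5 to 48.3% of their signals were whole numbers against at most 0.119% on the other arrays. The part of this in the week 9 values was not tested.

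Among the transcription factors, Atf4 encodes the effector of PERK. Its level ran from −1.50 at week 3 to 2.29 at day 14 in LFC (10 arrays), from 0.34 to 2.31 in HFC and from 0.87 to 2.36 in HF5. It ran from −0.24 to 2.48 in HF20 and from −0.34 to 1.96 in HF75. Atf4 lay at or below 0.14 on HF20 weeks 6, 12 and 18, on HF75 weeks 12 and 15 and on LFC week 12, and at 0.34 or above on the other arrays except LFC week 3.

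Ddit3 encodes CHOP, a factor tied to cell death under lasting ER stress. In LFC it was −0.80 at day 1, 0.25 at day 6, 1.42 at day 10 and 1.39 at day 14, then 0.81 at week 0. In HFC it was −0.23, −0.63 and −0.70 at days 6, 10 and 14, and 0.49 at week 0. The HFC array lay below the LFC array at each of these shared time points. The gap was 2.06 at day 10 and 2.09 at day 14, against 0.32 at week 0, which is the same time on the diet as day 14.

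Xbp1 encodes the factor made active by IRE1. It ran from 0.64 to 1.82 in HFC, and without the LFC week 3 array, at −1.88, from 1.10 to 2.22 in LFC. The HF5 array of week 9 stood apart at −0.80, and it was the dimmest array of the series.

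Herpud1 acts in ER-associated degradation, Dnajb9 encodes ERdj4, a co-chaperone of BiP, and Trib3 encodes a pseudokinase induced by ATF4 and CHOP. Herpud1 ran from 1.85 on HF20 week 6 to 4.45 on HF75 week 15, with LFC week 3 at 0.97. Dnajb9 ran from −0.07 on HF20 week 6 to 2.21 on HF5 week 15. At week 15 both Herpud1 (4.17, 4.36 and 4.45) and, where measured, Dnajb9 (2.07 and 2.21) had their highest levels of LFC, HF5 and HF75, while Dnajb9 was missing on HF75 week 15. Herpud1 on HFC (3.60) and Dnajb9 on HF20 (1.48) were also highest at week 15. Herpud1 on HF20 was highest at week 9 (3.54) and Dnajb9 on HFC at week 18 (1.56). Trib3 ran from −1.28 on HFC day 6 to 1.57 on HF75 week 15.

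The first comparison asked whether the high fat diet shifted these genes over the whole course. HFC was set against LFC at 10 shared time points, with the time point as a block. The 10 genes differed by −0.57 to 0.06 (log2), with a median of −0.05 beside 0.03 over all probes tested, and 2 of 10 lay above 0. Of 10 genes 0 had an unadjusted p under 0.05, against 3.05% of probes. The largest difference was that of Ddit3, at −0.57 (SE 0.33, fold 0.675, adjusted p = 0.998). It lay below LFC at 8 of 9 time points, and an exact permutation test that flips the sign of the differences gave p = 0.168, two-sided. The exception was week 12, where Ddit3 was 0.79 in HFC and −0.60 in LFC. The LFC value lay far below the other late LFC values and the HFC value at the late HFC mean, while it is the HFC array of that week that stood apart in outlier spots. Leaving out the pair of arrays that stood apart thus drops the single opposing time point. Without those arrays the difference of Ddit3 was −0.81 (SE 0.26), below LFC at 8 of 8 time points, with an exact permutation p of 0.00781, the smallest that 8 pairs allow. That p was not adjusted for the number of genes. Over all probes tested without those arrays, 0% passed the adjusted threshold and 6.55% had an unadjusted p under 0.05 (limma). Dnajb9 also lay below LFC (−0.30, SE 0.23), and Hspa5 was at −0.01 (95% interval −0.71 to 0.69). Several genes were low on the LFC week 3 array, which stood apart. There HFC minus LFC was 2.26 for Hspa5, 2.04 for Atf4, 3.08 for Xbp1, 2.24 for Herpud1 and 2.07 for Calr, but −0.21 for Pdia4. With limma's array weights, which count deviant arrays less, the estimates of all 10 genes were below 0. Ddit3 was then at −0.48 (SE 0.18), Xbp1 at −0.39 (SE 0.17) and Herpud1 at −0.21 (SE 0.15), and 0% of probes passed the adjusted threshold. In the same comparison 7 markers of B and plasma cells, which carry a large ER, had a median difference of −0.89, 7 of 7 below 0, and the immediate early genes described below one of −0.30, 7 of 8 below 0. Their part in the result was not tested.

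Over weeks 3 to 18 alone, with all 5 diets in 1 fit, HFC minus LFC ran from −0.23 for Ddit3 to 0.56 for Atf4 (SE 0.58). With all arrays no gene differed by more than its standard error. At an unadjusted p under 0.05 there were 0 of 10 genes and 2.33% of probes. These values moved with the arrays left out. Without week 3 alone, Atf4 went from 0.56 to 0.27, Hspa5 from 0.44 to 0.08 and Herpud1 from 0.29 to −0.10. Without the pair of arrays that stood apart they were −0.19, −0.22 and −0.15. Xbp1, at −0.05 with all arrays, was −0.68 (SE 0.42) without week 3, −0.49 (SE 0.43) without the pair and −0.54 (SE 0.27) with limma's array weights, each past its standard error. The B and plasma cell markers had a median difference of −0.92 here, 7 of 7 below 0, and their part in the result was not tested.

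The dose comparisons asked what KAL-1 added to the high fat diet at weeks 3 to 18. The doses share the HFC arrays. HF5 minus HFC lay between 0.02 and 0.33 for the 10 genes, with a median of 0.14 beside −0.03 over all probes, and 10 of 10 were above 0, although Hsp90b1 and Calr alone exceeded their standard errors. Of the 10 genes 0 had an unadjusted p under 0.05, against 3.44% of probes. Hsp90b1 was 5.87, 5.96, 5.69, 5.40, 5.28 and 5.43 at weeks 3, 6, 9, 12, 15 and 18 in HF5. In HFC it was 4.89, 5.74, 5.51, 5.01, 5.08 and 5.41 at the same weeks. HF5 was the higher array at 6 of 6 weeks, by 0.33 on average (SE 0.24, fold 1.26, adjusted p = 0.955), and the gap ran from 0.02 at week 18 to 0.98 at week 3. The exact permutation p of 0.0312, two-sided, is the smallest that 6 pairs allow. In the fit without the pair of arrays that stood apart the difference was 0.34 (SE 0.24). HF5 was higher at 5 of 5 remaining weeks, with an exact permutation p of 0.0625, the smallest that 5 pairs allow. Xbp1 was then at −0.01, so that 9 of 10 genes were above 0. The second probe of Hsp90b1 differed by 0.43 (SE 0.37) with all arrays.

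HF20 minus HFC had 7 of 10 genes below 0 and a median of −0.32 beside −0.07 over all probes, with 0 of 10 at an unadjusted p under 0.05 against 5.05% of probes. Atf4 differed by −0.88 (SE 0.58, fold 0.542), Hspa5 by −0.59 (SE 0.51), Hsp90b1 by −0.43 (SE 0.24), Herpud1 by −0.39 (SE 0.33), Pdia4 by −0.35 (SE 0.30) and Dnajb9 by −0.30 (SE 0.27). Xbp1 and Trib3 lay the other way, by 0.49 (SE 0.47) and 0.32 (SE 0.29), and Calr was at 0.11. The smallest adjusted p among the 10 was 0.772. These values depended on week 3, where HF20 lay above HFC for Atf4 and Hspa5. Without it Atf4 differed by −1.31 (SE 0.51), Hspa5 by −0.93 (SE 0.40) and Hsp90b1 by −0.58 (SE 0.24), 3 of 10 genes at an unadjusted p under 0.05 against 22.8% of probes, and 0 genes passed the adjusted threshold. Without the pair of arrays that stood apart Atf4 was at −0.69 (SE 0.51) and Hspa5 at −0.51 (SE 0.42). The low HF20 values came from weeks 6, 12 and 18. On the same arrays the median level of 8 immediate early genes (Fos, Egr1 and others, which cells switch on within minutes of a stimulus or of handling) was low too, at 0.65, 0.95 and 0.11, while on HF20 weeks 3, 9 and 15 it was 5.22, 4.97 and 4.83. The immediate early genes differed by a median of −1.99 between HF20 and HFC, 8 of 8 below 0, and 5 cytosolic heat shock genes by −0.92, 5 of 5 below 0. Their part in the result was not tested.

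HF75 minus HFC ran from −0.58 for Atf4 (SE 0.58) to 0.49 for Trib3 (SE 0.29, fold 1.40, adjusted p = 1.00), with a median of 0.08 beside −0.02 over all probes. Here 0 of 10 genes had an unadjusted p under 0.05 against 1.54% of probes. Trib3 lay above HFC at 5 of 6 weeks, with an exact permutation p of 0.219. Its week 15 level of 1.57 was the highest of the series, and its dimmer second probe differed the other way, by −0.35 (SE 0.41). Pdia4 lay below HFC, by −0.34 (SE 0.30), and Dnajb9 above, by 0.30 (SE 0.29). In the fit without the pair of arrays that stood apart Trib3 was at 0.52 (SE 0.30). Ddit3 went from 0.28 (SE 0.40) to 0.46 (SE 0.42) in that fit, which kept the HF75 week 12 array. Ddit3 lay above HFC at 5 of 5 remaining weeks, since leaving out HFC week 12 drops the single opposing week, at −1.34. The low Ddit3 value of week 12 was that of HF75, at −0.55, while HFC, at 0.79, lay at its late mean. With week 12 left out for all diets, Ddit3 was at 0.60 (SE 0.41). The mean of 3 doses minus HFC ran from −0.45 for Atf4 to 0.30 for Trib3 (SE 0.24), with 0 of 10 genes at an unadjusted p under 0.05 against 1.86% of probes. Scaling on the median of each array instead of its 75th percentile moved the median of all probes to 0.28, 0.19 and 0.30 in the comparisons of HF5, HF20 and HF75, and the median of the 10 genes to 0.48, −0.02 and 0.44.

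**Figure D2:**
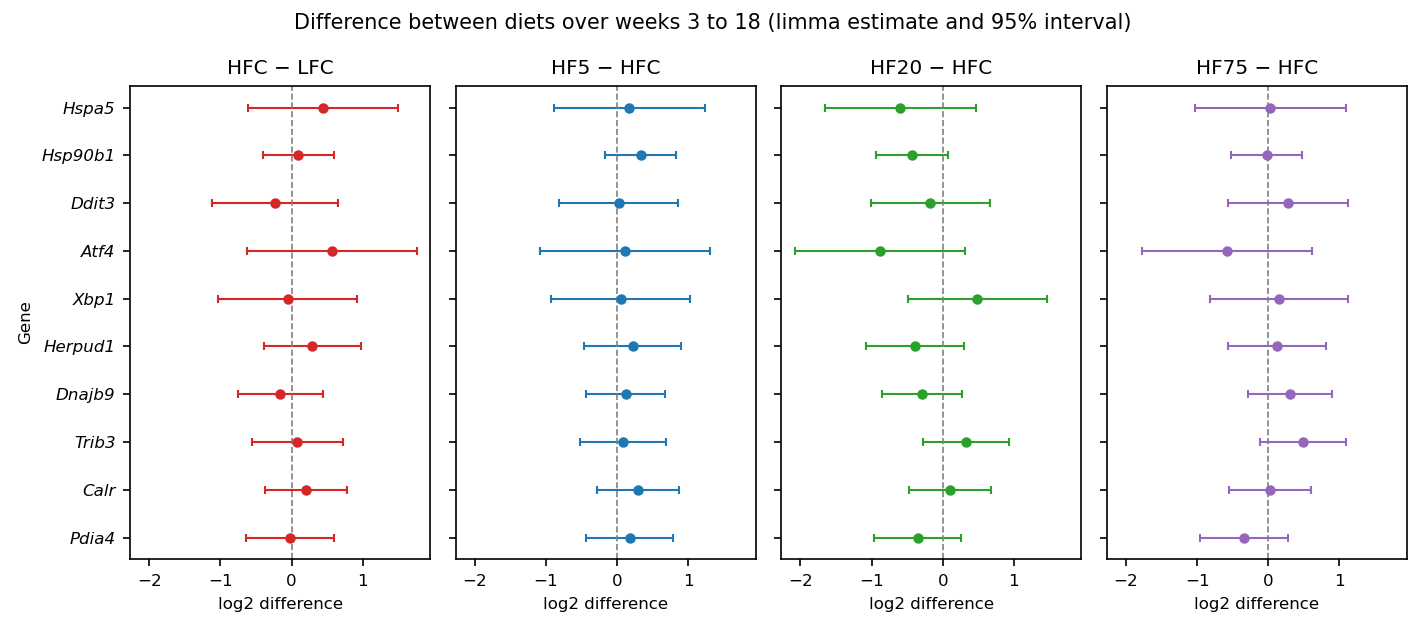
Log2 difference of each gene between diets over weeks 3 to 18 (horizontal axis), as the limma estimate with its 95% interval, for HFC against LFC and each KAL-1 dose against HFC. Each interval spans 0, and the HF20 panel has 7 of 10 estimates below 0.

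Within a gene, the 5 diets were ordered by their mean over weeks 3 to 18. With all arrays, neighbouring diets in that order differed by at most 0.89 of the pooled SD over weeks, a gap found for Hsp90b1 between HF20 at 4.84 ± 0.36 and LFC at 5.18 ± 0.50 (SD, n = 6 each). Without the pair of arrays that stood apart, 1 gap of 1.11 pooled SD exceeded the spread, that of Hsp90b1 between HF75 and HF20, and in either case its HF5 and HF20 means, at the ends of the order, lay 0.76 apart. HF20 had the lowest mean of the 5 diets for Hspa5, Hsp90b1, Ddit3, Atf4, Herpud1, Dnajb9 and Pdia4, and the highest for Xbp1. Without that pair of arrays LFC had the highest Xbp1 mean, at 1.64 beside 1.48 for HF20. HF5 had the highest mean for Hspa5, Hsp90b1, Atf4, Herpud1, Calr and Pdia4. The distance from the highest to the lowest diet was 0.45 to 1.00 log2 units across the genes, and 0.26 to 1.00 without the pair.

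Late arrays (weeks 3 to 18) were then set against early ones (days 1 to 14 and week 0) within each diet, to see whether the genes shifted with time. The arrays of days 1 to 14 were scanned after those of weeks 0 to 18. Time and scan period therefore cannot be told apart, except through week 0, which was scanned in the same period as the late arrays. On the high fat diet the 10 genes differed by −0.31 to 1.06, with 8 of 10 above 0 and a median of 0.57 beside 0.04 over all probes. At an unadjusted p under 0.05 there were 3 of 10 genes, Ddit3, Herpud1 and Hsp90b1, against 16.6% of probes.

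Ddit3 on HFC was −0.27 ± 0.54 early (SD, n = 4) and 0.79 ± 0.46 late (SD, n = 6). The values of days 6, 10 and 14 lay below every late value, while week 0 at 0.49 lay inside the late range of −0.08 to 1.16. The difference was 1.06 (SE 0.33, fold 2.08, limma adjusted p = 0.231), with an exact permutation p of 0.0190, two-sided. Herpud1 was 2.36, 1.96, 2.81 and 3.35 at days 6, 10 and 14 and week 0, and 3.04 to 3.60 late. Again the day values lay below all late values and week 0 did not. It differed by 0.73 (SE 0.29, exact permutation p = 0.0190). Hsp90b1 differed by 0.57 (SE 0.26, exact permutation p = 0.0238), with early levels of 4.39 to 4.96 and late levels of 4.89 to 5.74, so the ranges overlapped.

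Hspa5 (0.85, SE 0.41), Atf4 (0.73, SE 0.40), Dnajb9 (0.56, SE 0.32) and Trib3 (0.53, SE 0.31) also lay above 0. Xbp1 lay below, at −0.31 (SE 0.26), and was at −0.24 (SE 0.26) without week 12. Without the week 12 array Ddit3 was at 1.06 (SE 0.36), Herpud1 at 0.79 (SE 0.31), Hsp90b1 at 0.62 (SE 0.26) and Hspa5 at 0.96 (SE 0.43), 4 of 10 genes at an unadjusted p under 0.05 against 15.1% of probes. Day 14 and week 0 on HFC, the same time on the diet but scanned in different periods, differed for these genes: Hspa5 was 4.64 and 5.73, Atf4 0.34 and 1.84, Ddit3 −0.70 and 0.49, and Dnajb9 0.36 and 1.13. With week 0 as the sole early array, the median over the 10 genes was −0.05, with 4 of 10 above 0, and Ddit3 was at 0.30 (SE 0.55). With limma's array weights, which count deviant arrays less, 6 of the 10 genes passed the threshold, together with 7902 probes in all, or 25.4% of those tested. These were Ddit3 (1.33, adjusted p = 0.0115), Herpud1 (1.02), Atf4 (1.11), Dnajb9 (0.90), Hspa5 (1.03) and Trib3 (0.80, adjusted p = 0.0464). Which arrays were counted less is not given here, and the weights do not part time from scan period. Beside these results the immediate early genes differed by a median of 2.78, 8 of 8 above 0, and the cytosolic heat shock genes by 2.05, 5 of 5 above 0, and with week 0 as the sole early array those medians were 0.06 and 0.85. Their part in the result was not tested.

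**Figure D3:**
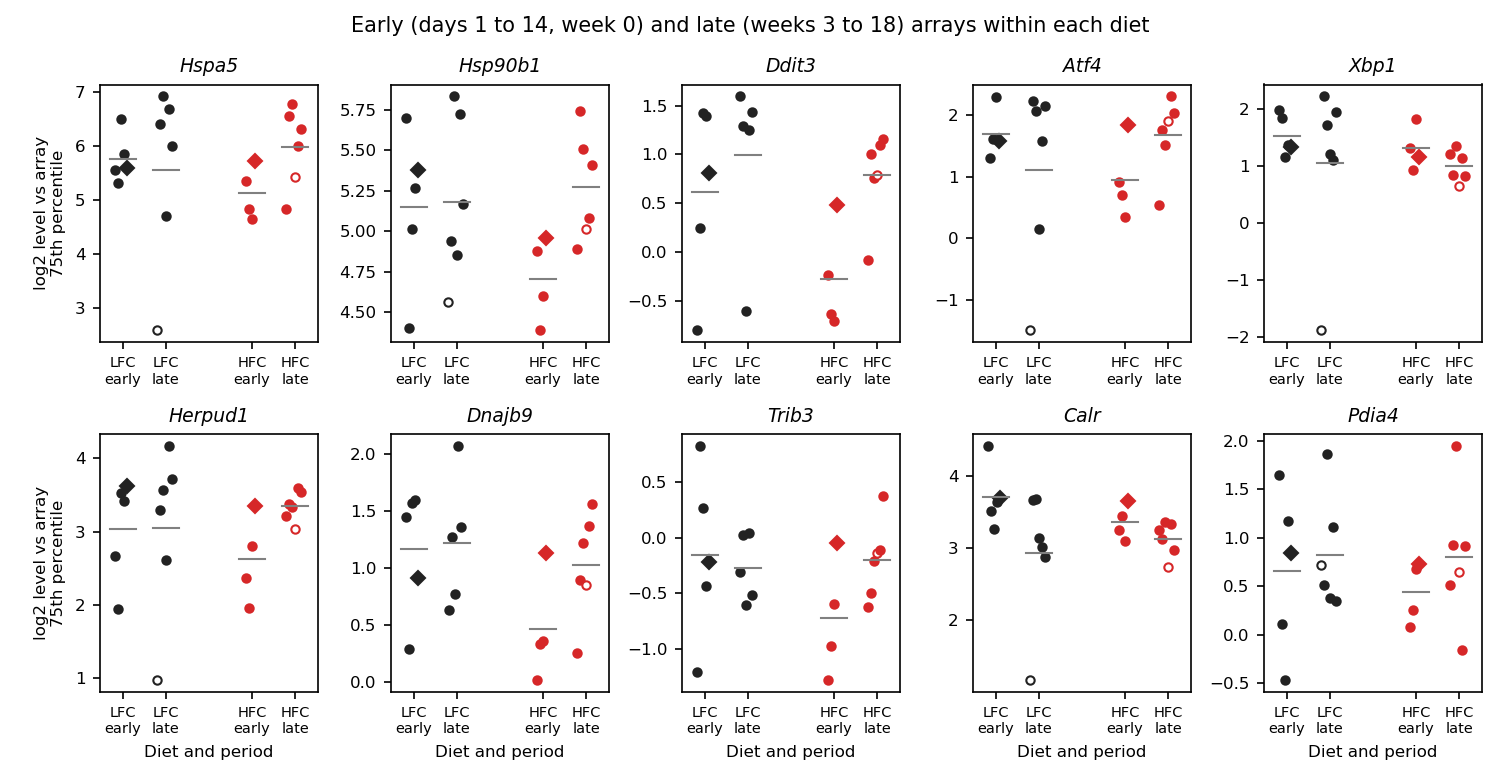
Level of each gene (log2 signal minus the array's 75th percentile) on each early and late array of LFC (black) and HFC (red). Bars are means, diamonds week 0 and open circles LFC week 3 and HFC week 12. On HFC the week 0 diamond is the highest early value of each gene but Xbp1 and lies within the late range of each gene but Calr.

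On the low fat diet the 10 genes differed between late and early by −0.78 to 0.38, with a median of −0.05 beside −0.09 over all probes. At an unadjusted p under 0.05 there were 0 of 10 genes, against 5.49% of probes. Calr alone exceeded its standard error, at −0.78 (SE 0.46), with 3.70 ± 0.43 early (SD, n = 5) and 2.92 ± 0.92 late (SD, n = 6), and it was at −0.43 (SE 0.30) without the LFC week 3 array. Whether the HFC minus LFC gap itself shifted was tested on the 10 paired differences. That shift ran from −0.05 to 1.32, with 9 of 10 genes above 0, a median of 0.69 beside 0.15 over all probes, and 0 of 10 genes at an unadjusted p under 0.05 against 5.26% of probes. Atf4 shifted by 1.32 (SE 0.65), Ddit3 by 1.20 (SE 0.58), Hspa5 by 1.12 (SE 0.60), Trib3 by 0.99 (SE 0.54) and Herpud1 by 0.80 (SE 0.59). The smallest adjusted p among the 10 was 0.833. Without the pair of arrays that stood apart these were 0.65, 0.85, 0.59, 0.92 and 0.28. The immediate early genes shifted by a median of 2.51, 8 of 8 above 0.

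Several of the genes moved together across arrays. Of 45 pairs of genes over 35 to 37 arrays, 16 had a Pearson correlation past the adjusted threshold (permutation test of 100000 resamples, Benjamini-Hochberg over the 45 pairs), and 16 of these 16 were positive. These are 35.6% of the pairs. The smallest r among them was 0.41, and of 14196 gene names on the array 2.90 to 25.6% correlated that highly with a given ER stress gene, from Trib3 at the low end to Herpud1 at the high end (24.8% for Hspa5), so correlations of this size were common. By Spearman's rho 15 of them passed, the exception being Hsp90b1 with Ddit3. Hspa5 took part in 6 of these pairs, Hsp90b1 in 6, Ddit3 and Dnajb9 in 5 each, Atf4 and Herpud1 in 4 each and Pdia4 in 2. The highest values were those of Hspa5 with Ddit3 (r = 0.77, rho = 0.70), Hspa5 with Hsp90b1 (r = 0.75, rho = 0.75) and Herpud1 with Dnajb9 (r = 0.73, rho = 0.70), each with a permutation p of 1e-05, the smallest that the resampling can give. Without the 2 arrays farthest from the median of the first gene these were 0.76, 0.74 and 0.68, and the sign was the same in 16 of 16 pairs.

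Xbp1, Trib3 and Calr took part in none of these pairs. Xbp1 correlated at −0.03 with Hspa5 and at −0.35 with Hsp90b1 (rho = −0.34, adjusted p = 0.0864, permutation test). After the mean of each time point was taken out, 18 pairs passed, 16 of them shared with the first set. The single negative one was Xbp1 with Hsp90b1 (r = −0.41, rho = −0.47, adjusted p = 0.0311, permutation test). With the pair of arrays that stood apart put back, 19 pairs passed, 15 of them shared.

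**Figure D4:**
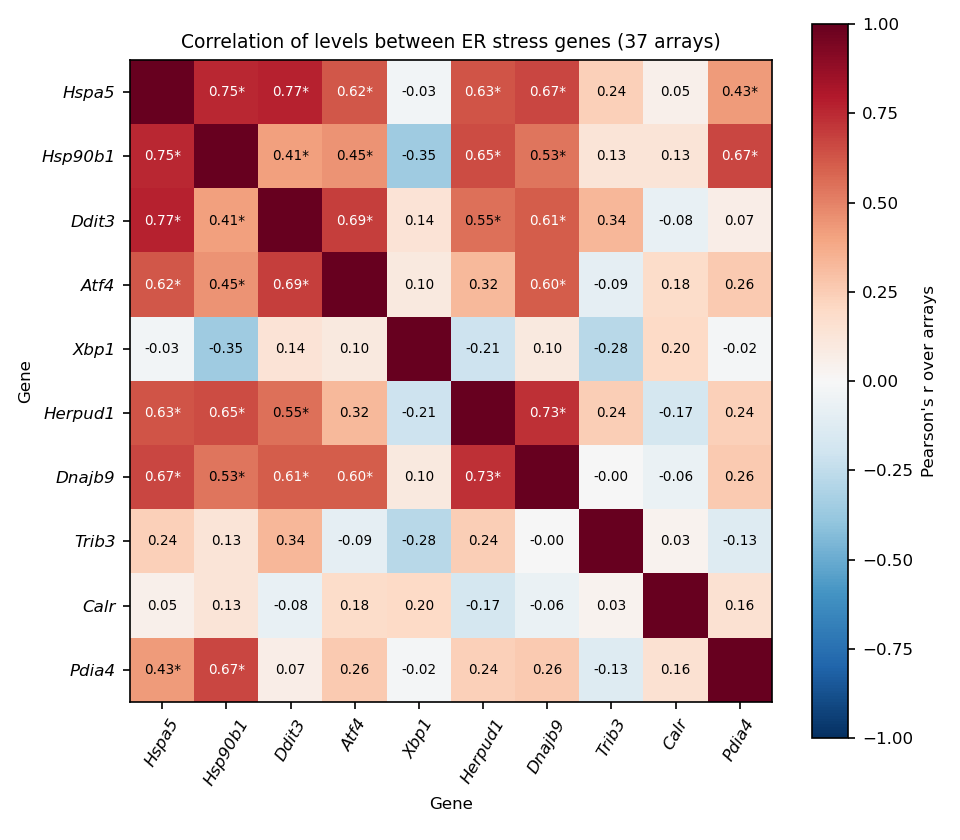
Pearson correlation of levels between each pair of the 10 genes over 35 to 37 arrays, on a colour scale from −1 to 1, with an asterisk for pairs past the adjusted threshold. The block of Hspa5, Hsp90b1, Ddit3, Atf4, Herpud1 and Dnajb9 is red throughout, while no pair of Xbp1, Trib3 or Calr carries an asterisk.

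Several arrays with low levels of Ddit3, most of them with low Hspa5 too, are given with their immediate early genes. The set is not complete: HFC week 3, with Hspa5 at 4.84 and Ddit3 at −0.08, is not in it. On LFC week 12, Hspa5 was 4.70 and Ddit3 −0.60, with an immediate early median of −0.31. On HFC days 6 and 10, Hspa5 was 5.36 and 4.83 and Ddit3 −0.23 and −0.63, with immediate early medians of 0.09 and 0.37. Hspa5 was not low on HFC day 6, as LFC day 6 had 5.32. On HF75 week 12, Hspa5 was 4.58 and Ddit3 −0.55, with an immediate early median of 1.04. Other arrays paired low ER stress genes with high immediate early genes. HFC day 14 had Hspa5 at 4.64 and an immediate early median of 4.17, and HF5 week 9 had Ddit3 at −0.64 with the highest immediate early median, 6.00. The immediate early medians fell into a low and a high range, so no pooled correlation with them is given.

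**Figure D5:**
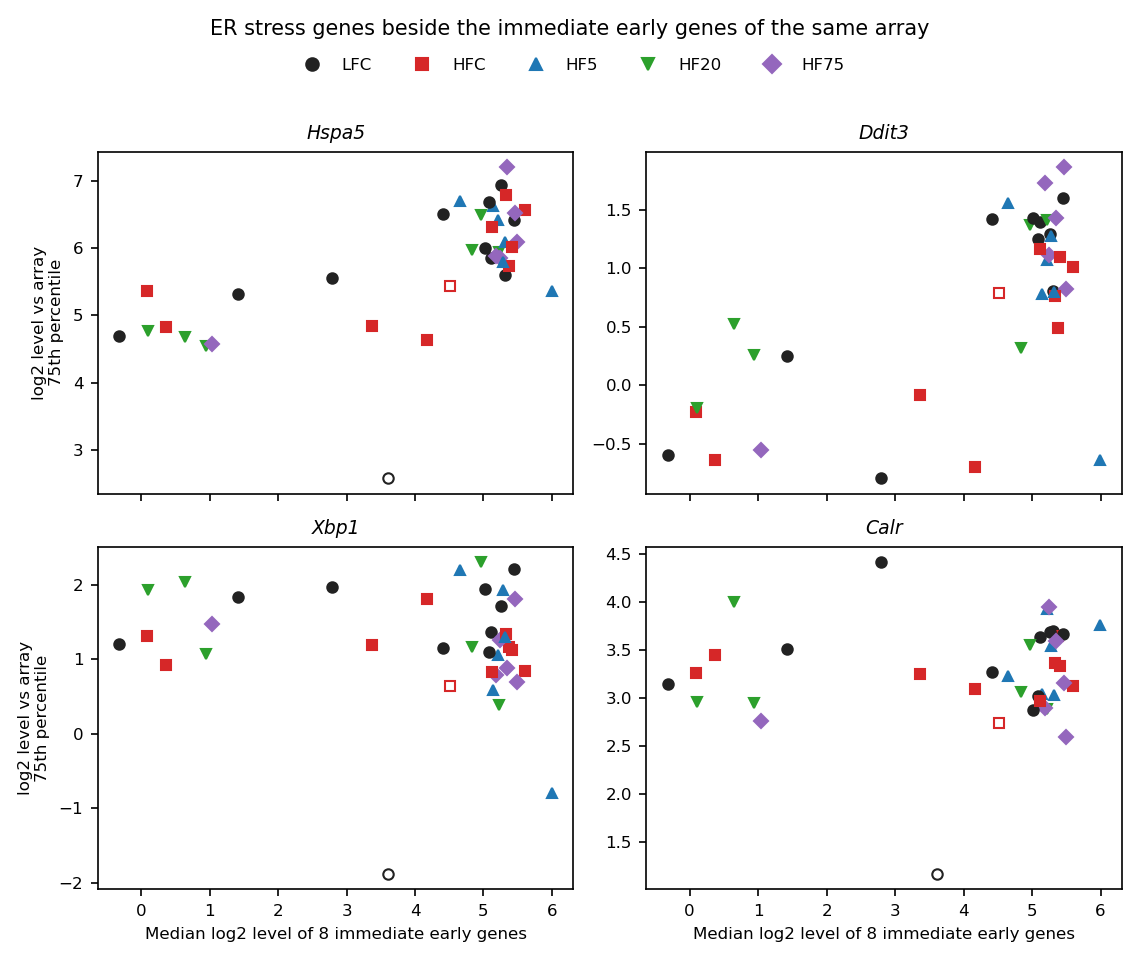
Level of Hspa5, Ddit3, Xbp1 and Calr (log2 signal minus the array's 75th percentile) against the median level of 8 immediate early genes, 1 point per array, with open symbols for LFC week 3 and HFC week 12. The LFC week 12 array, with an immediate early median of −0.31, has Hspa5 at 4.70, Xbp1 at 1.21 and Calr at 3.14, and the HF5 week 9 array, with 6.00, has them at 5.37, −0.80 and 3.76.

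The genes whose pattern was most like that of 3 ER stress genes were taken from 14196 gene names, by Spearman's rho over 37 arrays. For Hspa5 they were LOC100046179 (0.89), Gm2326 (0.88), Gm4570 (0.87), the histone gene Hist2h3c1 (0.86) and Yrdc (0.86). Among ER stress genes Hsp90b1 came in place 273, Ddit3 in place 731, Herpud1 in place 1662 and Pdia4 in place 2978. The first probes of Dnajb9 and Atf4 have a missing value and were not ranked, and their rho with Hspa5 was 0.63 and 0.50 over 36 arrays. For Ddit3 the genes most alike were Frat2 (0.85), Ppm1j (0.83), Trib1 (0.79), Gpr4 (0.79) and Tnfrsf12a (0.79), with Hspa5 in place 104. For Xbp1 they were Rbm13 (0.81), Ppp2r1a (0.79), Mak16 (0.78), Cul1 (0.76) and Usp9x (0.76), where Rbm13 and Mak16 are names of the same gene.

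The rest of the pathway was read from lists of ER stress sensors, other ER chaperones and folding enzymes, ER-associated degradation and translocation genes and other ATF4 targets. No gene of these lists passed the adjusted threshold in any comparison. Of the sensors 7 of 7 were on the array. Late minus early on HFC, Creb3l2, an ER-bound relative of ATF6, differed by 1.19 (SE 0.32) and Atf6 by 0.78 (SE 0.31), and 2 of 7 sensors had an unadjusted p under 0.05, both higher, against 16.6% of all probes. Atf6 also lay higher late on LFC, by 1.00 (SE 0.34). In HF5 minus HFC, Ern1, which encodes IRE1, differed by 0.71 (SE 0.34), 1 of 7 against 3.44% of all probes. In HF20 minus HFC Mbtps2, a protease that cuts ATF6, differed by −0.98 (SE 0.43), 1 of 7 against 5.05%. In HF75 minus HFC no gene of these lists had an unadjusted p under 0.05.

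Of other chaperones 14 were on the array and 13 were tested. In HF20 minus HFC the isomerase Pdia3 differed by −0.94 (SE 0.30, adjusted p = 0.772) and the oxidase Ero1l by −1.06 (SE 0.41). They were the 2 of 13 with an unadjusted p under 0.05, against 5.05% of all probes. Late minus early, P4hb, another disulfide isomerase, lay lower by −0.71 (SE 0.24) on HFC and −1.63 (SE 0.69) on LFC, while Pdia3 lay higher on HFC by 0.81 (SE 0.31).

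Of the degradation and translocation genes 12 of 12 were tested, and Derl3 was the sole one at an unadjusted p under 0.05 in any comparison. It lay lower in HFC than in LFC, by −0.68 (SE 0.30) over 10 time points and −1.49 (SE 0.59) over weeks 3 to 18. Of all probes 3.05% and 2.33% had an unadjusted p under 0.05 in these comparisons. Of the other ATF4 targets 18 of 19 were on the array. Over 10 time points Chac1 lay lower in HFC, by −0.69 (SE 0.22, adjusted p = 0.998), as did the hormone gene Fgf21, by −1.15 (SE 0.49). They were 2 of 17 tested, against 3.05% of all probes. Late minus early on HFC, 5 of 18 had an unadjusted p under 0.05, 3 higher and 2 lower, against 16.6% of all probes. The lower ones were Psat1 of serine synthesis (−1.73, SE 0.60) and Cth of cysteine synthesis (−2.62, SE 0.91). In HF20 minus HFC, Asns, which makes asparagine, differed by 0.98 (SE 0.49) and Psat1 by 1.12 (SE 0.61), opposite in sign to Atf4 itself. The HFC minus LFC gap of Atf3, a stress factor that is also an immediate early gene, shifted by 3.92 (SE 1.45, adjusted p = 0.833).

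The other probes of the genes were read as a check. Those of Dnajb9 correlated with its first probe at r = 0.84 and 0.84, the second probe of Hsp90b1 at 0.42, that of Calr at 0.41 and that of Trib3 at 0.16 (36 to 37 arrays). Late minus early on HFC, the second probe of Dnajb9 differed by 0.92 (SE 0.39) and the third by 0.54 (SE 0.30), beside 0.56 for the first. The second probe of Calr differed by 0.39 (SE 0.40), beside −0.23 for the first. That of Trib3 was at −0.14 (SE 0.35), beside 0.53 for the first, and that of Hsp90b1 at 0.33 (SE 0.28), beside 0.57.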

How the data were processed

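RNA of epididymal adipose tissue was hybridised to 39 one-colour arrays (Cy3). Per the file headers, the deposited intensity values came from Feature Extraction 10.5.1.1, after subtraction of background and spatial trend and without normalisation between arrays. The authors' own table, log2 values relative to LFC at each time point, was not used. The signal was log2 transformed, each array's 75th percentile was subtracted, outlier spots were set to missing and spots of a probe averaged. A probe entered a comparison if its spot was well above background on 10 or more of 20 arrays (HFC against LFC), 6 of 30 (weeks 3 to 18), 5 (LFC) or 4 (HFC). Tests were two-sided and used limma 3.58.1 (R 4.3.3), with the time point as a block between diets and Benjamini-Hochberg adjustment over all probes. Single genes were tested by exact permutation over arrays, and correlations by scipy 1.17.1 and numpy 2.4.6 under Python 3.11.15. The least squares step was checked to equal limma's and tested on simulated data. Named were the 10 genes in each comparison and, of each pathway list, genes past the threshold or else the 2 with the smallest p. The genes and lists were chosen with earlier results of these data known. Precision is set by how many arrays there were. Alternatives were normexp background, quantile and median scaling, outlier spots kept, other filters, array weights, no block, scan date or slide as a block, the methods' t-test on paired differences, week 0 as the only early array and each time point left out.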

Additional observations from a re-analysis of the deposited data

Results flagged for a closer look

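Of 80 gene and group combinations with 4 to 10 arrays, 6 had an array whose gap to its nearest neighbour was a large share of the group's range by Dixon's criterion at the 95% level, and chance gives about 1 in 20. For Ddit3 in weeks 3 to 18, LFC week 12 lay at −0.60 with the next LFC array at 1.25, a gap of 0.843 of the range. For Ddit3 in the HFC arrays of weeks 3 to 18, week 3 lay at −0.08 with the next at 0.76, a gap of 0.677. For Ddit3 in HF5, week 9 lay at −0.64 with the next at 0.78, a gap of 0.646. For Xbp1 and Calr in the LFC arrays of weeks 3 to 18, week 3 lay at −1.88 and 1.17 with the next arrays at 1.10 and 2.87, gaps of 0.726 and 0.676. For Pdia4 in HFC, week 9 lay at 1.95 with the next at 0.93, a gap of 0.482. LFC week 3 is one of the pair of arrays that stood apart in outlier spots.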

How the results depend on the processing

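For the 32 gene differences that exceeded their standard error, 613 of 626 values under the alternatives had the same sign and side of the threshold, including 261 of 261 with a time point left out, 6 were past the threshold with array weights, and 7 had the other sign. Those 7 were Dnajb9 in HF20 minus HFC (0.0084) and Pdia4 in HF75 minus HFC (0.018) with median scaling, Calr in HF5 minus HFC (−0.029) with normexp background, and Atf4 (−0.16), Dnajb9 (−0.11), Herpud1 (−0.0019) and Trib3 (−0.15) in HFC late minus early with week 0 as the only early array. Of 58 differences within their standard error, 183 of 1154 values had the other sign. No ER stress gene passed in the main setting, so the same side of the threshold means not passing. The 32 differences were picked for exceeding their standard error, and fits with a time point left out share most arrays. The count of ER stress genes past the threshold was 0 under every alternative except array weights in HFC late minus early, where it was 6. Of all probes in HFC late minus early, 7902 passed with array weights, 4 with median scaling, 1 with quantile scaling, 1 with week 0 only, and 0 to 775 with a time point left out, 775 without week 0 and 1 without week 3. In LFC late minus early 332 passed with array weights, 0 with normexp background, 79 with outlier spots kept, 0 with week 0 only, 79 when well above background on every array, and 51 (without day 6) to 212 (without week 3) with a time point left out. Leaving out day 1, day 10, day 14, week 0, week 9, week 12 or week 15 gave 83, 84, 79, 94, 78, 73 and 94. For the shift of the HFC minus LFC gap 2 passed with array weights and 2 without the pair of arrays that stood apart. For the mean of 3 doses 0 to 1 passed with a time point left out, 1 without week 3. The causes were not tested. The alternative that took the 75th percentile without outlier spots was chosen after seeing the data. Precision is limited by the single array of each diet at a time point and by saturation of the Hspa5 probe.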
